A study of Drosophila melanogaster with 6 samples.

Results

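GAGA factor (GAF) peaks that are narrow and lie close together on the large autosomes are described here. They are the peaks on the chromosome arms 2L, 2R, 3L and 3R that are under 2000 bp wide and lie under 500 bp from the nearest listed peak. The rule found 1756 of the 11713 peaks in the list, among 5424 narrow autosomal peaks. It left out a stretch on 2L, from 21400880 to 21544901, which held 89 peaks, 64 of them within the same limits. The members were chosen by position, width and gap, so the values of all 3 below are a description. The score comes from the same peak calls, so it is described too and nothing was tested.

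ChIP-seq, in which DNA bound by a protein is immunoprecipitated from fixed chromatin and sequenced, was used to map GAF in whole Drosophila melanogaster embryos aged 8 to 16 h, in 3 ChIP libraries and 3 input libraries of DNA that was not immunoprecipitated. All 6 libraries came from the strain Y cn bw sp. Its genotype is given as y[1] and oc[R3.2] on the first chromosome. The second set of alleles is cn[1], bw[1], sp[1], Gr22d[1], Gr22b[1] and CG33964[R4.2], and the last set is Rh6[1], GstD5[1], LysC[1], MstProx[1] and lab[R4.2]. Embryos were fixed in 1.8% formaldehyde for 15 min, and the antibody, KW3-Trl-D2, was a rabbit polyclonal raised against part of GAF. The authors deposited 1 list that gives where each peak lies and its score, so no value has a replicate error and the depth is unknown. With whole embryos, strong binding in few cells and weaker binding in many cannot be told apart.

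GAF, the product of the Trl gene, binds GA-rich DNA through a single zinc finger. Its BTB/POZ domain lets the protein form multimers, and such multimers are known to bind several neighbouring GA-rich elements together. GAF is known for keeping chromatin open at promoters, heat shock genes among them, and for its presence at Polycomb response elements. The gene table at hand was of release 6 and the list is on FlyBase release 5, so regions are given by position on release 5, counted from 1, with no gene assigned.

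About 1 narrow autosomal peak in 3 lay in a tight group. The members were 32.4% of the narrow autosomal peaks (95% Wilson interval 31.1 to 33.6, which covers counting error only and takes peaks as independent). By arm the share was 34.9% on 2L (412 peaks; 32.3 to 37.7), 32.9% on 3L (481; 30.5 to 35.3), 31.4% on 2R (400; 29.0 to 34.1) and 30.7% on 3R (463; 28.4 to 33.1), and neighbours in this order had overlapping intervals. Under the same limits the share was 29.7% on X (27.2 to 32.2), 43.6% on chromosome 4 (34.0 to 53.7), 46.9% on the heterochromatic scaffolds (42.7 to 51.1), 32.4% on U (28.3 to 36.7) and 18.1% on Uextra (16.8 to 19.4). Along the autosomal arms, cut into 5 equal stretches of the span from first to last listed peak, the share was 29.5%, 28.0% and 30.5% in the 3 stretches nearest the arm tip, in order. It was 37.8% (35.0 to 40.6) in the next and 34.9% (32.2 to 37.7) in the stretch nearest the centromere. None of these differences was tested.

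The members formed 795 groups, a group being a run of listed peaks with every gap under 500 bp and at least 1 member. The groups held 1978 peaks: the 1756 members and 222 broad peaks of 2000 bp or more. Most groups were pairs. There were 544 groups of 2 peaks (68.4%, 65.1 to 71.6), 173 of 3, 50 of 4 and 14 of 5, and 14 larger groups with 6 to 12 peaks. Pairs held 980 members, groups of 3 held 461 and larger groups held 315. A close neighbour on both sides was listed for 340 members (19.4%, 17.6 to 21.3). By arm there were 188 groups on 2L, 181 on 2R, 218 on 3L and 208 on 3R. The numbers follow the limits: with gaps under 250 bp there were 995 members in 505 groups, and with weak peaks under a score of 20 removed from the list there were 613 members in 331 groups.

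**Figure D1:**
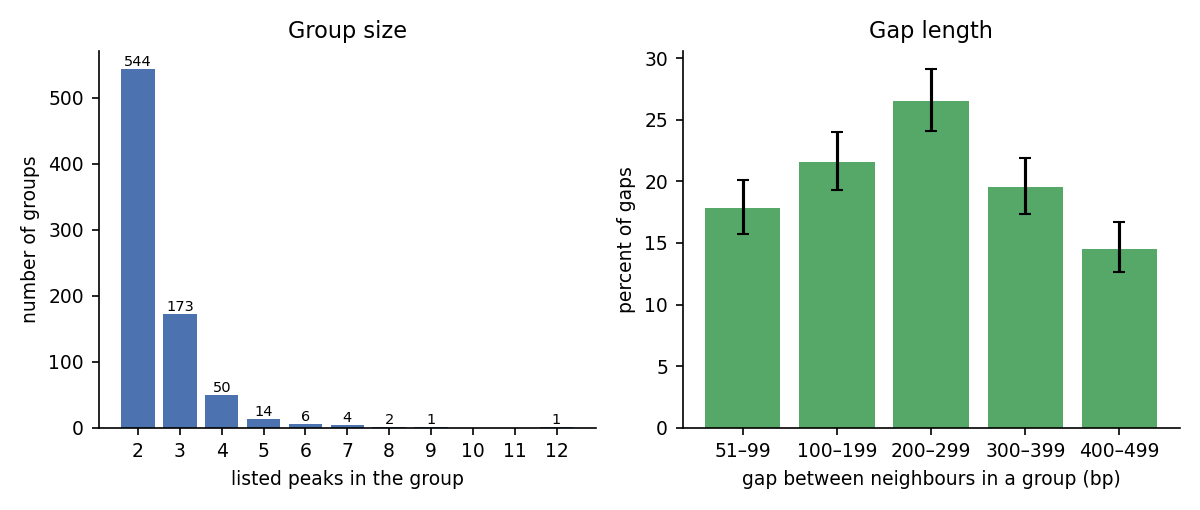
Left, number of groups (y axis) by the number of listed peaks in the group (x axis), over 795 groups. Right, percent of the 1183 gaps between neighbours (y axis) by gap length in bp (x axis), with 95% Wilson intervals as bars; the first bin starts at the smallest listed gap, 51 bp, and so spans about 50 bp against 100 bp for the others. Groups of 2 make up 544 of the 795, and 17.8% of gaps fall in the short first bin.

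Groups were compact and mostly filled by their peaks. The median span from first to last base was 2000 bp (quartiles 1312 and 3314), ranging from 593 to 32070 bp. Median spans were 1569 bp for pairs, 3231 bp for groups of 3, 3576 bp for groups of 4 and 10727 bp for groups of 6 or more. Peaks covered a median of 85.3% of a group's span. The 1183 gaps had a median of 233 bp (quartiles 131.5 and 348), and the midpoints of neighbours lay a median of 959.5 bp apart. Gaps of 51 to 99 bp made up 17.8% (15.8 to 20.1) of all gaps, and no gap anywhere in the list was under 51 bp. A peak scoring 100 or more, broad peaks included, stood beside 65.9% (59.2 to 71.9) of these shortest gaps. It stood beside 44.2% (37.0 to 51.7) of gaps of 400 to 499 bp. Over all 1183 gaps, the gap and the higher of the neighbouring scores had a Spearman rho of -0.07, close to 0.

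Members scored lower than isolated narrow peaks of about the same width. The authors' score had a median of 23.0 over the members (quartiles 13.1 and 161) and of 78.6 (20.65 and 335) over the 3668 isolated narrow autosomal peaks. Median widths were close, 484.5 bp for members and 498 bp for isolated peaks. Scores under 20, called weak here, made up 45.5% (43.2 to 47.8) of members and 24.3% (23.0 to 25.8) of isolated peaks. Scores of 100 or more, called strong here, made up 29.3% (27.2 to 31.5) and 45.7% (44.1 to 47.3). The 444 broad autosomal peaks had a median score of 1096, and 98.4% of them were strong.

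The members' median score was the lower in each band of width. At 200 to 299 bp the median score was 11.0 for 383 members and 14.0 for 709 isolated peaks. At 300 to 499 bp it was 18.1 (n = 518) against 41.7 (n = 1132). The difference was widest, in proportion and in size, at 500 to 999 bp, with 59.75 (n = 529) against 231 (n = 1198), and at 1000 to 1999 bp it was 544 (n = 326) against 657 (n = 629). On each arm, too, the members' median, from 20.65 on 2L to 29.4 on 3L, lay under that of the isolated peaks, from 69.4 on 3L to 91.3 on 2L. Width and score rose together in both sets, with a Spearman rho across peaks of 0.797 for members and 0.861 for isolated peaks. Peaks of 1 list share their libraries, and both measures come from the same calls.

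The limit of 500 bp marked no step in score. Narrow autosomal peaks 500 to 999 bp from their nearest neighbour, which are not members, had a median score of 24.5 with 44.1% weak, and those at 1000 to 1999 bp had 30.7 with 43.6% weak. The members had medians of 20.0 at gaps of 51 to 99 bp, 21.6 at 100 to 249 bp and 25.8 at 250 to 499 bp, with 49.7%, 46.3% and 42.8% weak. The level changed farther out: at 2000 to 4999 bp the median was 80.6 with 18.7% weak, and at 10000 bp or more it was 129 with 12.3% weak. Just inside the limit, the neighbours 499 bp apart on 3R, from 25709559 to 25710031 and from 25710531 to 25710811, scored 18.39 and 12.07. Just outside it, the neighbours 500 bp apart on 2L, from 9004829 to 9005028 and from 9005529 to 9005940, scored 14.81 and 17.47. At the limit of width, the member of 1998 bp on 2R from 8478427 to 8480424 scored 803.11, and the peak of 2000 bp on 3R from 17270634 to 17272633, which is no member, scored 1097.39.

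**Figure D2:**
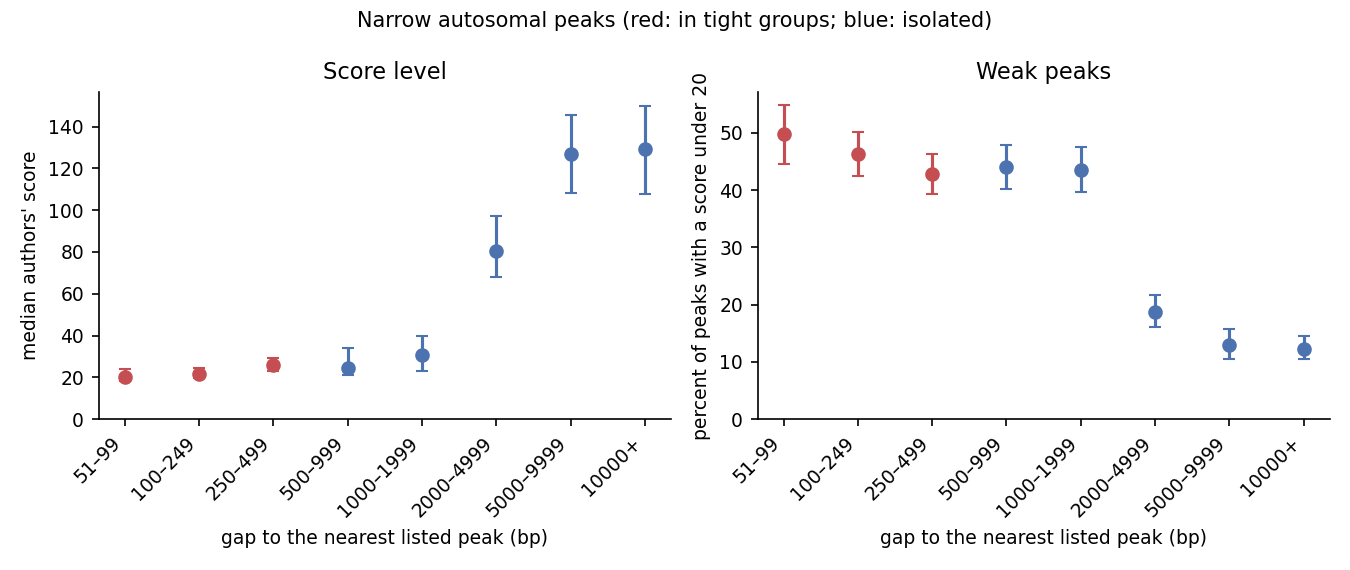
Narrow autosomal peaks by the gap to their nearest listed peak in bp (x axes). Left, median authors' score with the 95% order-statistic interval of the median; right, percent of peaks with a score under 20 with the 95% Wilson interval. Red points are members of tight groups and blue points isolated peaks. Medians lie between 20.0 and 30.7 at all gaps under 2000 bp and rise to 129 at 10000 bp or more.

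Within groups, scores were unequal, as they were between neighbours farther apart. For adjacent narrow autosomal peaks, the median ratio of higher to lower score was between 2.14 and 2.89 in the bands under 500 bp. It was 2.43 at 500 to 999 bp, 2.05 at 1000 to 1999 bp and between 3.59 and 4.55 in the bands beyond. These differences were not tested. The highest score of a group had a median of 430 (quartiles 47.6 and 927) and the lowest a median of 13.8 (10.5 and 28.0). A strong peak was present in 69.2% of groups (550; 65.9 to 72.3), and at least 2 were present in 20.4% (162; 17.7 to 23.3). All peaks were strong in 11.7% (93) and all were weak in 8.68% (69). The top peak alone carried a median of 78.2% of a group's summed score. By size it was 79.2% in pairs, where it cannot be under 50%, 77.3% in groups of 3 and 85.2% in groups of 4. It was 62.6% in groups of 5 and 48.4% (32.2 to 91.2) in groups of 6 or more. The top score was larger in larger groups, which take it from more peaks, so the rise follows in part from size itself. Its medians were 303 in pairs, 646 in groups of 3, 652 in groups of 4 and 1132 in groups of 6 or more. Its Spearman rho with size was 0.220 over the 795 groups. The median over all peaks in groups of a size did not follow that order: it was 41.5 in pairs, 23.7 in groups of 3, 19.2 in groups of 4, 21.1 in groups of 5 and 36.3 in groups of 6 or more.

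Weak members had company of both kinds. Of the 799 weak members, 42.1% (38.7 to 45.5) had a strong peak as a close neighbour and 33.5% (30.4 to 36.9) had weak neighbours alone. Of the 515 strong members, 43.3% (39.1 to 47.6) had another strong peak beside them and 34.8% (30.8 to 39.0) had weak neighbours alone. Across the 1183 neighbouring peaks in groups the Spearman rho of the scores was -0.04. For the 932 neighbours in which both were narrow it was 0.04, both close to 0, and with gaps up to 1000 bp allowed within groups it was 0.0233, of the opposite sign to the first. The gap and the ratio of the neighbouring scores had a rho of 0.01. Neighbouring narrow autosomal peaks 1000 to 1999 bp apart had a rho of 0.36, from 461 adjacent peaks. It was 0.25 at 500 to 999 bp and 0.25 at 2000 to 4999 bp. Farther out it was -0.01 at 5000 to 9999 bp and -0.03 at 10000 bp or more. These values are across peaks of 1 list, and the differences between them were not tested.

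Strong and weak peaks stood side by side in a larger share of the shortest gaps than of any longer band, with intervals that overlap those of the next bands and no test made. Among adjacent narrow autosomal peaks with 51 to 99 bp between them, 31.25% (24.6 to 38.8; n = 160) joined a strong and a weak peak. The share was 22.9% (18.7 to 27.8) at 100 to 249 bp, 21.8% (18.3 to 25.9) at 250 to 499 bp and between 14.5% and 20.0% in the bands beyond. Adjacent peaks that were both strong made up 8.24% to 11.8% in the bands under 500 bp. The share was similar just beyond, 10.9% at 500 to 999 bp and 11.5% at 1000 to 1999 bp. It was 25.9% (24.0 to 27.8) at 10000 bp or more. Adjacent peaks that were both weak made up 19.4% to 25.7% under 500 bp, 32.2% at 500 to 999 bp and 2.35% at 10000 bp or more.

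In pairs, neither side was favoured. The peak at the lower coordinate had the higher score in 262 of 544 pairs (48.2%, 44.0 to 52.4). The higher score had a median of 303 and the lower a median of 15.85, and their ratio had a median of 3.81 (quartiles 1.81 and 38.4). The ratio was under 2 in 29.0% of pairs and 10 or more in 38.8%. A strong and a weak peak made up 164 pairs (30.1%, 26.4 to 34.1), and the weak one lay at the higher coordinate in 77 of them (47.0%, 39.5 to 54.6). Both peaks were strong in 90 pairs (16.5%, 13.7 to 19.9) and both weak in 65 (11.9%, 9.49 to 14.9). The 108 pairs of a member with a broad peak were less equal, with a median ratio of 52.8 against 2.99 in the 436 pairs of narrow peaks. Broad autosomal peaks had a median score of 1096 and members of 23.0, so this difference follows in part from the split by width.

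**Figure D3:**
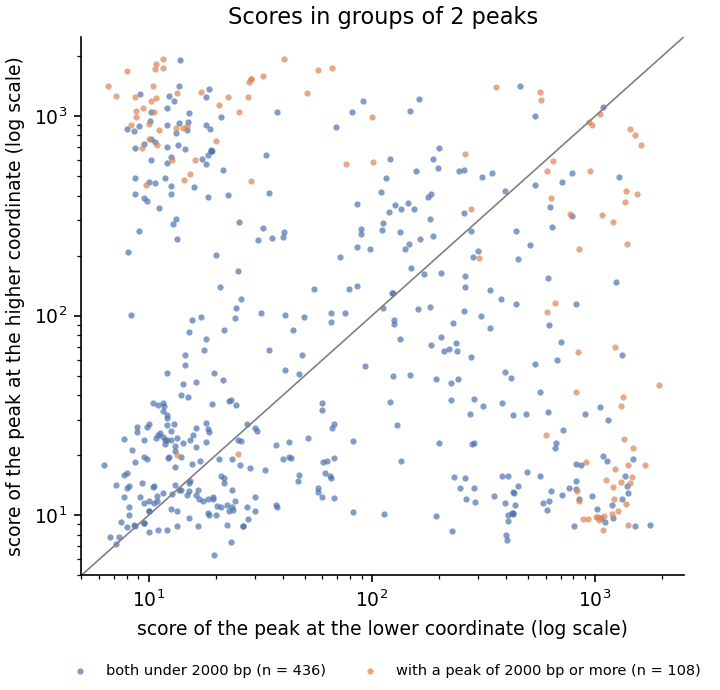
Authors' scores of the 544 groups of 2 peaks, the peak at the lower coordinate on the x axis and the peak at the higher coordinate on the y axis, both on log scales; each point is a pair and the line marks equal scores. Blue pairs hold narrow peaks alone (n = 436) and orange pairs hold a broad peak (n = 108). Pairs gather near equality at low scores and in the corners where 1 peak scores 100 or more and the other under 20, with 262 of 544 below the line.

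Named pairs show both kinds. The most unequal pair with a strong peak, on 2L from 12481599 to 12484914, joined a member of 329 bp scoring 6.55 to a broad peak scoring 1413.11, with 268 bp between them. On 3R from 5252122 to 5255514 a member scoring 7.96 lay 331 bp before a broad peak scoring 1675.33. Among narrow peaks alone, the pair on 2R from 10194206 to 10196497 was the most unequal of these, with scores of 1753.86 and 8.89. In these the weak peak was 268 to 329 bp wide.

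Equal strong pairs were also listed. On 3R from 12274412 to 12279407, a member scoring 937.48 and a broad peak scoring 936.07 were 54 bp apart. On 2L from 15745136 to 15748747, peaks of 1901 and 1648 bp scored 1081.31 and 1107.15, with 63 bp between them. On 3L from 913852 to 915505, peaks of 762 and 763 bp scored 112.01 and 109.57, with 129 bp between them.

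In groups of 3 or more the top score lay at an inner position in 77 of 251 groups (30.7%, 25.3 to 36.6). If every position of a group were equally often the top, the share would be 40.3%, the mean over groups of the share of inner positions. Without a broad peak the values were 29.9% (50 of 167; 23.5 to 37.3) and 38.8%. The lowest score was inner in 37.1% (93 of 251; 31.3 to 43.2). In the 173 groups of 3, the top score was first in 40.5% (33.4 to 47.9), in the middle in 26.0% (20.0 to 33.0) and last in 33.5% (26.9 to 40.9). Scores fell steadily with the coordinate in 43 of these groups and rose steadily in 33, together 43.9% (36.7 to 51.4), and the other orders occurred 21 to 27 times each. In the 50 groups of 4 the top was at positions 1 to 4 in 18, 12, 8 and 12 groups, with overlapping intervals. No test was made of any order.

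**Figure D4:**
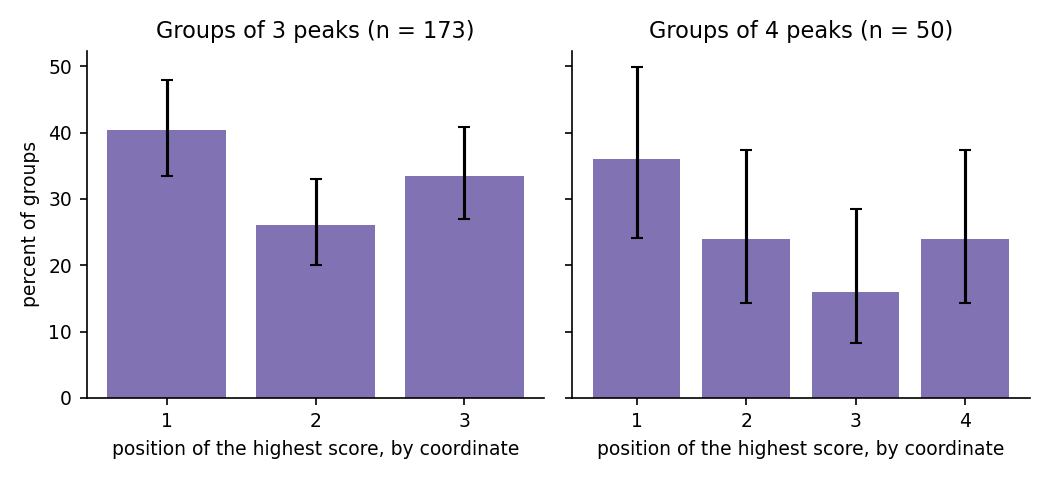
Percent of groups (y axes) with the highest score at each position counted by coordinate (x axes), for the 173 groups of 3 peaks on the left and the 50 groups of 4 on the right; bars show 95% Wilson intervals. In groups of 3 the middle position holds the top score in 26.0% (20.0 to 33.0), below either end. Its interval overlaps that of the last position (26.9 to 40.9) and ends just under that of the first (33.4 to 47.9). No test was made.

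A broad peak was part of 192 groups (24.2%, 21.3 to 27.2), and 228 members (13.0%, 11.5 to 14.6) stood directly beside one. These members had a median score of 17.6, with 55.7% weak (49.2 to 62.0), against 23.7 and 44.0% weak (41.5 to 46.5) for the other 1528. The broad peak had the top score in 181 of the 192 groups, and 98.4% of the 444 broad autosomal peaks were strong. Over all 795 groups the widest peak had the top score in 86.3%. Groups with a broad peak spanned a median of 4370 bp and the others 1608 bp.

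Of all 795 groups, 68.4% were pairs, 21.8% groups of 3 and 6.29% groups of 4, and 24.2% held a broad peak. The highest scores among members belonged to groups of these sizes, made of narrow peaks alone. The 10 groups with the highest member score were 4 pairs, 4 groups of 3 and 2 groups of 4, with 0 broad peaks among them. The top member of each scored from 1461.99 to 1901.4, and the lowest score of each ranged from 8.69 to 29.77, under 20 in 9 of 10. Over all 795 groups the lowest score had a median of 13.8 (quartiles 10.5 and 28.0). The highest, which scored 1901.4 and ran from 15997903 to 15999264 on 2R, lay 293 bp after a peak of 320 bp scoring 13.81. On 2L from 3580248 to 3582594 the scores were 1677.03, 13.36 and 10.73 in order of coordinate, and on 3L from 14543894 to 14546320 they were 1474.59, 21.98 and 8.69. In 8 of the 10 groups the top peak came first by coordinate. Over all groups it came first in 48.2% of pairs, 40.5% of groups of 3 and 36.0% of groups of 4.

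Some groups held more than 1 high score. On 3L from 10729749 to 10734567, 4 members scored 1592.91, 83.92, 1523.95 and 12.86, so the strong peaks alternated with lower ones. On 3L from 11237350 to 11241695 the scores rose from 11.05 to 1136.7 and 1527.76. On 3R from 9842681 to 9847283 a peak scoring 29.77 lay between peaks scoring 1461.99 and 505.75.

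At the other extreme were runs of low, near-equal scores. The 5 groups of 4 or more peaks with the smallest ratio of highest to lowest score each held 4 members, and all 20 scored between 13.83 and 25.09. They were not especially narrow, with widths from 247 to 1305 bp. Among these 20 peaks 4 were of 1000 bp or more, against 326 of all 1756 members. On 2L from 14804442 to 14807810 the scores were 20.98, 18.39, 18.26 and 16.05, a ratio of 1.31. On 2L from 3074319 to 3077619 they were 17.09, 20.27, 15.09 and 19.67, and the lowest belonged to the widest peak, of 1137 bp. On 3R from 27239489 to 27242667 they were 19.03, 25.09, 19.02 and 18.12.

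Most of the largest groups held broad peaks. Of the 14 groups of 6 or more peaks, 10 held at least 1 (71.4%, 45.4 to 88.3), against 24.2% of all 795 groups. A larger group has more peaks that can be broad, and the difference was not tested. Over all groups 222 of 1978 peaks were broad, and among their 101 peaks the 14 held 28 broad peaks and 73 members. These members had a median score of 17.5, against 23.0 over all members, with 54.8% weak (40 of 73; 43.4 to 65.7), an interval that takes in the 45.5% over all members. Strong peaks made up 11.0% of them (8 of 73; 5.66 to 20.2), against 29.3% over all members, a difference that was not tested. The other 4 groups, each of 6 peaks, held members alone, with scores from 7.34 to 738.35. The largest group, on 3L from 17555922 to 17587991, had 12 peaks over 32070 bp, 7 of them broad. Its 5 members scored 25.93, 26.54, 24.09, 19.32 and 8.36. The first 4 of these followed each other by coordinate, between broad peaks scoring 1043.51 and 44.3, and the last ended the group.

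The order of strong and weak differed among the other large groups. On 3R from 5902912 to 5920906, 9 peaks included members scoring 73.59, 29.39, 8.84, 12.21 and 8.52, and the top score of 1004.52 was the fourth by coordinate. On 2R from 7488923 to 7498398, a broad peak scoring 1761.42 had 2 members before it, scoring 27.0 and 11.43, and 5 after it, scoring 63.87, 21.49, 14.93, 13.51 and 17.87. On 2R from 6097752 to 6111293, 4 members scoring 10.23 to 14.16 followed the last broad peak, which scored 1348.55. On 2L from 16267217 to 16287812, 5 members scoring 548.98, 11.68, 14.81, 9.14 and 27.04 lay between broad peaks scoring 1583.22 and 1530.31. Weak members thus stood before, between or after broad peaks.

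**Figure D5:**
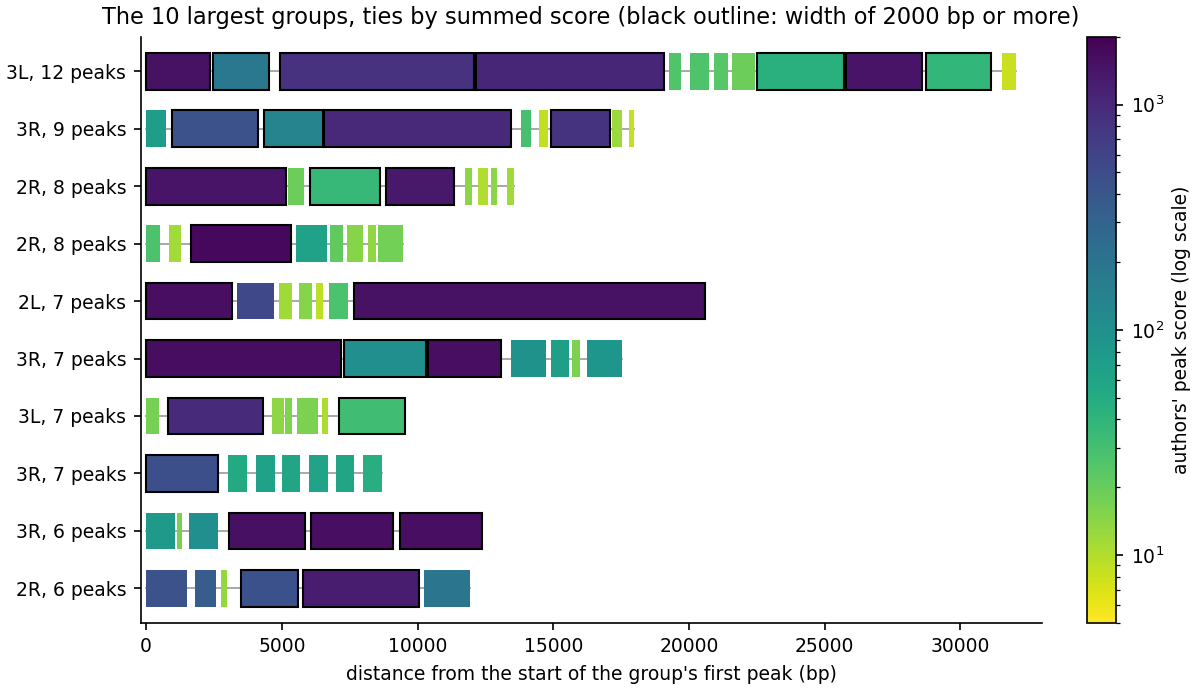
The 8 groups of 7 or more peaks and, of the 6 groups of 6, the 2 with the highest summed score, 1 row each, labelled by arm and number of peaks; the x axis is the distance in bp from the start of the group's first peak. Each block is a listed peak drawn to its width, coloured by the authors' score on a log scale, with a black outline for peaks of 2000 bp or more. The longest row spans 32070 bp, and the row marked 3R with 7 peaks and 1 broad peak shows 6 members of near-equal width and spacing.

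Among groups of 4 or more peaks the ratio of highest to lowest score was largest, 237, on 2R from 5834496 to 5846515. There, members scoring 7.97, 9.75, 9.09 and 20.01 came before a broad peak of 10007 bp scoring 1885.18. On 3R from 5048319 to 5059059, members scoring 8.18, 11.33 and 27.63 rose toward a broad peak scoring 1492.27. On 2R from 4532555 to 4540439 the order was the opposite, with members scoring 15.92, 13.04 and 10.53 before a broad peak scoring 1798.23.

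Windows with many members held many narrow peaks in part by definition, since members are narrow peaks. Of 930 windows of 100 kb with a narrow autosomal peak, 489 held a member, and the 113 with 5 or more held 812 of the 1756. Those 113 windows held 1397 narrow peaks, a median of 12 each against 4 in the other windows. Members were 58.1% of the narrow peaks in them and 23.4% in the other windows. The windows were chosen by their members, so both differences follow in part from that choice. A region rich in members and one rich in listed peaks cannot be told apart here. The window with the most, on 3L from 18000001 to 18100000, held 19 members in 9 groups among 32 narrow peaks, with a median member score of 15.7. Next were 2R 7500001 to 7600000, with 16 members in 5 groups among 22 narrow peaks (median 20.6), and 2R 5800001 to 5900000, with 15 in 5 groups among 21 (median 15.0). On 3R from 8300001 to 8400000 there were 13 members in 3 groups among 15 narrow peaks, with a median of 69.9.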

How the data were processed

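The authors deposited 1 list of peaks for the series. MACS2, BWA and CASAVA (versions 1.7.0.2 and 1.7.0.3) are named in the submitters' processing notes, and positions refer to FlyBase release 5, per the file headers. Each peak carries 1 score deposited by the authors. How it is scaled, where the threshold lay and how the 6 libraries entered the call is not given in the sources used here, so the score served only to describe and rank peaks within the list. Other deposited values, the start and end of each peak, have starts counted from 0 and are printed counted from 1. Width is end minus start, and a gap is the next start minus the previous end. Groups are runs of any listed peaks with gaps under 500 bp and at least 1 member.

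No test was made. Shares have 95% Wilson intervals and medians have 95% order-statistic intervals, both for counting error only. Libraries have no value of their own here, so there is no depth, replicate error or comparison of ChIP with input. The members, the lists and the score levels of 20 and 100 were chosen with earlier results of these data known. Regions named are the 10 groups with the most peaks (6 groups of 6 peaks tied for the last 2 places, and those with the higher summed score were taken), the 10 with the highest member score, the 5 longest, the 5 most and 5 least equal of 4 or more peaks, the largest of each arm and the 3 most and 3 least equal pairs with a score of 100 or more. Some of them are given by counts and ranges. The grouping was tested on simulated data with known groups. Alternatives changed the limits of gap, width and score. Sequence, motifs and genes were not analysed here. Values were computed in Python 3.11.15 with pandas 2.3.3, numpy 2.4.6 and scipy 1.17.1, and drawn with matplotlib 3.10.9.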

Additional observations from a re-analysis of the deposited data

How the results depend on the processing

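Over 14 results and 9 alternatives, 75 of 126 values stayed within the main value's interval or, for counts, within 1.5 times. The other 51 did not, and where an alternative's own construction does not show the cause, the cause was not tested. With gaps under 250 bp there were 995 members in 505 groups, a share of 18.3%, 80.6% pairs, medians of 1836 bp for span, 147 bp for gap, 21.3 for score and 539 bp for width. With gaps under 1000 bp the share was 44.2%, pairs were 61.9%, the median span 2356 bp and gap 325 bp, and the rho of neighbouring scores 0.0233. With width under 1000 bp the median score was 18.2 and width 419 bp, and 52.6% of groups held a wider peak. With width under 4000 bp these were 26.9, 533 bp and 6.66%. Among peaks scoring 20 or more there were 613 members in 331 groups, a share of 16.4%, 86.4% pairs, a median span of 2275 bp, score of 123 and width of 692 bp, a pair ratio of 3.16, 24.4% with the top inside, a top share of 73.6% and 29.9% of groups with a broad peak. At or above the list median of 64.7 there were 302 members in 172 groups, a share of 11.8%, 92.4% pairs, a median span of 2489 bp, gap of 215 bp, score of 259 and width of 819 bp, a pair ratio of 2.30, 23.1% with the top inside, a top share of 68.8%, a rho of 0.0518 and 30.2% of groups with a broad peak. With gaps to other narrow peaks alone the share was 29.5%, pairs 71.9%, the median span 1608 bp, the pair ratio 2.90, the top share 73.1%, the rho 0.0365 and groups with a broad peak 0%. Without the 1% highest scores 20.5% of groups held a broad peak. The share of pairs with the higher score at the lower coordinate stayed within its interval in all 9 alternatives, and with the 2L region kept all 14 results did. No paired analysis was possible because libraries have no values of their own in the list, which also kept any replicate from being left out. What strength of binding would have gone unlisted cannot be said without the depth.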

Other observations

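The last listed peaks of 3R formed an evenly spaced run, noticed after the values were seen. In the group on 3R from 27896015 to 27904698, a broad peak scoring 476.11 was followed by 6 members, and the last of them ended where the list for 3R ends. The 6 members scored 52.5, 63.46, 59.7, 62.33, 58.55 and 47.1 in order of coordinate, and their widths were 687, 689, 663, 691, 671 and 685 bp. Their midpoints lay 994 bp apart on average (SD 25.9 bp over 5 distances, range 964 to 1023). The coefficient of variation of these distances was 2.60%. Over the 31 runs of 6 neighbouring peaks inside groups, the next lowest value was 19.3%, on 2R in the group that starts at 5872144.

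On 3R, the broad peaks from 8301723 to 8304436 and from 8330680 to 8333702 had the same score, 1599.33, which no other listed peak had. They stood in different groups. In the later group the broad peak that followed, from 8333953 to 8336975, had the same width of 3023 bp as the one before it and scored 1605.76. Whether these positions share sequence was not tested.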
